A study of Mus musculus with 2 samples.

Results

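The 10 temporal birth-date factors described here are transcription factor genes that mark when a spinal neuron was born: Onecut1, Onecut2, Onecut3, Pou2f2, Zfhx3, Zfhx4, Nfia, Nfib, Neurod2 and Neurod6. They were taken by symbol from a list of factors known in the spinal cord, and all 10 were found among the 31053 genes of the deposited tables. Single cells were profiled at day 9 of differentiating MM13, a mouse embryonic stem cell line, in 1 library under RA+BMP4 (retinoic acid with BMP4) and 1 library under RA (retinoic acid). Retinoic acid is a patterning signal that posteriorizes neural tissue, and BMP4 is a dorsalizing growth factor. Both cultures shared RA, the line and the day, and dead cells had been removed from both before capture. With 1 library per condition, no test between conditions was possible, and every interval below is a 95% interval that covers counting error only.

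In the embryonic spinal cord, neurons of every dorsal and ventral class pass through a shared temporal code. The earliest-born neurons express Onecut genes, neurons born next express Pou2f2 and the zinc finger homeobox genes Zfhx3 and Zfhx4, and the last-born express the nuclear factor I genes Nfia and Nfib followed by the bHLH genes Neurod2 and Neurod6. Nfia and Nfib are also known in late neural progenitors, glia and connective tissue. A single day of culture gives the state of each cell on that day and not its birth date, so early and late below name the genes and not measured ages.

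Neurons were defined as cells with at least 5 UMIs of Tubb3, Elavl3 and Stmn2 together, 3 genes of the neuronal cytoskeleton and of neuronal RNA binding. The rule kept 3973 of 8352 RA+BMP4 cells (47.6%) and 3558 of 5900 RA cells (60.3%), with median depths of 9628 and 12924 UMIs. Just outside it lay 181 RA+BMP4 and 156 RA cells with 4 such UMIs, and just inside it 99 and 100 cells with 5. The rule did not hold only neurons: it also took 116 of 174 RA+BMP4 and 280 of 334 RA cells that carried at least 10 UMIs of pluripotency genes. After clustering without the 10 genes, 4 clusters whose markers were pluripotent-like, progenitor-like, roof plate-like or mesenchyme-like held 8.96% of the RA+BMP4 and 14.2% of the RA cells of the rule, but 21.1% and 35.7% of their UMIs. Levels are therefore given for all cells of the rule and for the 3617 RA+BMP4 and 3052 RA cells of the remaining 18 neuronal clusters, a split chosen after seeing the data. Neurons of the RA library had a higher median share of mitochondrial UMIs, 4.22% in RA+BMP4 and 6.28% in RA. The libraries shared 43 cell barcodes, 21 of them among the kept cells.

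Neurod2 and Neurod6 are bHLH genes of the last-born tier whose UMIs were found in the same cells more often than the product of their shares gives, and their promoters are shown so that this pairing can be read beside the sequence. RefSeq's GRCm38.p6 table held a window of 250 bases before to 50 bases after a start for 6 of the 10 genes. The windows of Onecut1, Neurod2 and Neurod6 hold the gene start of the GENCODE annotation used below. Those of Pou2f2, Zfhx3 and Nfia belong to other starts, away from it, and were not used. In these windows, read 5′ to 3′ on the gene's strand, capitals mark matches on either strand to the E-box CAGATG, which proneural bHLH factors bind, or to the NFI motif TTGGCA.
Neurod2, chr11:98329596-98329895, minus strand: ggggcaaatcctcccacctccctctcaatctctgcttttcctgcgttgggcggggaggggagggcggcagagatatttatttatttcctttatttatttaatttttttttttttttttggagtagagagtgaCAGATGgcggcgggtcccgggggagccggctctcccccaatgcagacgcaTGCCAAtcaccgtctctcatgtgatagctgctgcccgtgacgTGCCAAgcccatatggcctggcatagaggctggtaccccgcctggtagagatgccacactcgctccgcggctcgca
Neurod6, chr6:55681214-55681513, minus strand: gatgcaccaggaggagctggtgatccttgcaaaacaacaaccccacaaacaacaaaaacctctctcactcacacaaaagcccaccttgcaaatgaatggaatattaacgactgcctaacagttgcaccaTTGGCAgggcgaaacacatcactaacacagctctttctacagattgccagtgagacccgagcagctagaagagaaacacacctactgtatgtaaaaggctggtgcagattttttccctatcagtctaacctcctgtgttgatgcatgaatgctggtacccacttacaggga

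The Neurod2 window held 1 CAGATG and 2 NFI motifs and the Neurod6 window 1 NFI motif. Over 32851 promoter windows of the same length, CAGATG or its complement CATCTG was found in 17.2% and TTGGCA or its complement TGCCAA in 14.1%. Also searched on both strands were CAGCTG (16.3% of windows), the octamer ATGCAAAT bound by POU factors (1.74%) and the Onecut motif ATCAAT (7.54%), and none of these matched in either window. The Onecut1 window held none of the 5 motifs. These are letter matches only, and the 3′ counts measure no promoter.

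The 10 genes are protein-coding, and their loci are given in GRCm38 from GENCODE vM21. Onecut1 is at chr9:74861921-74891781 on the plus strand, Onecut2 at chr18:64340020-64400987 on the plus strand and Onecut3 at chr10:80494835-80517276 on the plus strand. Pou2f2 is at chr7:25087344-25179726 on the minus strand. Zfhx3 is at chr8:107942644-108961630 and Zfhx4 at chr3:5218526-5415857, both on the plus strand. Nfia is at chr4:97772734-98118874 on the plus strand and Nfib at chr4:82290173-82705750 on the minus strand. Neurod2 is at chr11:98325415-98329648 and Neurod6 at chr6:55677822-55681263, both on the minus strand. Only Onecut1 overlaps another gene of the deposited tables on its own strand, Gm20649, and the UMIs of the pair may be split.

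Onecut2, Pou2f2, Zfhx3, Neurod2 and Neurod6 had higher levels in neurons, whereas Nfia and Nfib had higher levels in the other cells. Levels are pooled CPM, a gene's UMIs over all UMIs of the pooled cells on the usual CPM scale, with no division by length since 3′ reads count 1 UMI per molecule. In RA+BMP4, Onecut2 had 57.9 CPM in neuronal clusters against 4.37 CPM in the other kept cells. In RA it had 81.3 against 7.55 CPM. Pou2f2 had 189 against 7.99 CPM in RA+BMP4 and 255 against 8.82 CPM in RA. Zfhx3 had 1185 against 262 CPM in RA+BMP4 and 1069 against 215.5 CPM in RA. Neurod2 had 14.4 against 0.382 CPM in RA+BMP4 and 13.1 against 0.146 CPM in RA, and Neurod6 had 7.94 against 0.104 CPM and 5.37 against 0.0626 CPM. All 5 genes were higher in neurons in both libraries, and the Neurod6 level of the other RA cells rests on 3 UMIs.

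Nfia ran the other way, with 36.9 CPM in neuronal clusters and 198 CPM in the other cells of RA+BMP4, and 32.4 and 227 CPM in RA. Nfib likewise had 26.2 and 186 CPM in RA+BMP4 and 22.5 and 220 CPM in RA. Zfhx4, a large homeodomain protein gene, was less restricted, with 408 against 255 CPM in RA+BMP4 and 524 against 214 CPM in RA. Over all cells of the rule, 4 of 7 genes at or above 10 CPM were at least 2-fold higher than in the other cells of RA+BMP4 and 2 were at least 2-fold lower. Of all genes, 11.9% were higher and 11.6% lower by that rule. In RA, 3 of 6 were higher and 2 lower, beside 11.0% and 9.46% of all genes.

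**Figure D1:**
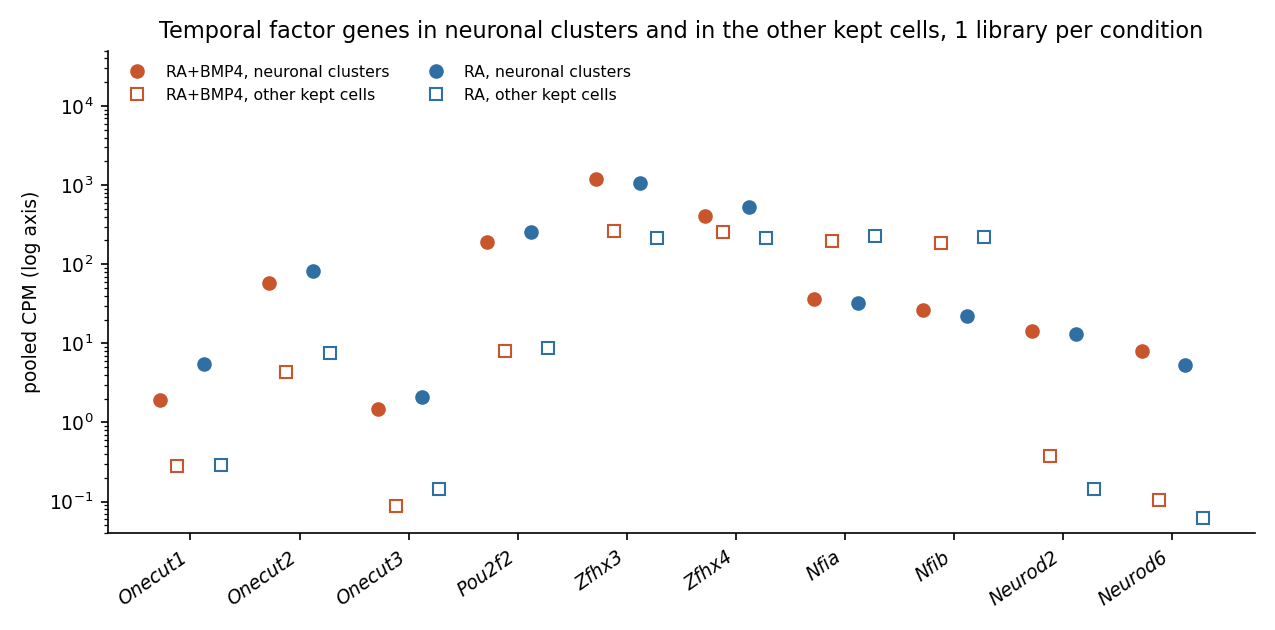
Pooled CPM (log axis) of the 10 genes in the neuronal clusters (filled circles) and in the kept cells outside the neuron rule (open squares), RA+BMP4 in orange and RA in blue, 1 library each. Nfia and Nfib are the genes whose squares lie above their circles in both libraries.

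Cells outside the rule with 20 or more collagen UMIs, a type that should lack the neuronal genes, were taken as a guide to free RNA. Free RNA cannot be told apart there from low expression. In these cells Neurod6 had no UMI in 649 RA+BMP4 and 393 RA cells, and Neurod2 had 0.246 and 0.0906 CPM. Onecut2 stood there at 2.62 and 2.54 CPM and Pou2f2 at 6.88 and 4.08 CPM, far under their neuronal levels. Nfib, known in mesenchyme, had 458 and 455 CPM there. After each cell was thinned to 5000 UMIs, Onecut2 had a UMI in 20.9% of RA+BMP4 (interval 19.5 to 22.3%) and 24.6% of RA neuronal-cluster cells (23.1 to 26.2%), against 1.23% and 1.02% of collagen-rich cells. Median depths before thinning were 9327 and 12295 UMIs in neuronal clusters and 16431 and 25761 UMIs in collagen-rich cells. Without thinning the neuronal shares were 31.7% and 43.9%. Thinned shares of Neurod2 were 5.71% and 4.95% of neuronal cells, against 0.309% (2 of 648) of the RA+BMP4 collagen-rich cells and 0 of 393 in RA, where a limit of 3 cells would be 0.763%.

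Across neurons as a whole, Onecut1, a gene of few UMIs, was lower in RA+BMP4, and the more abundant genes were less than 2-fold apart. None of the 7 genes at or above 10 CPM was 2-fold apart over the cells of the rule, where 1.61% of all genes were at least 2-fold higher and 1.67% lower in RA+BMP4. The same was true in neuronal clusters, where 1.53% of all genes were higher and 0.75% lower.

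Of the early genes, Onecut2 had 57.9 CPM in RA+BMP4 and 81.3 CPM in RA neuronal clusters, a log2 ratio of -0.49 (interval -0.57 to -0.41). Over all cells of the rule the ratio was -0.23, with 47.6 CPM in RA+BMP4 and 55.9 CPM in RA. The dI6-like cluster described below held 32.3% of the RA Onecut2 UMIs of the rule's cells, and without it Onecut2 stood at 51.0 and 60.9 CPM, a log2 ratio of -0.25 (-0.35 to -0.16). Onecut1, the liver and neuronal factor HNF6, was rare, with 1.94 CPM in RA+BMP4 and 5.55 CPM in RA neuronal clusters (log2 -1.51, -1.93 to -1.12), and with 1.69 and 3.29 CPM without the dI6-like cluster. Onecut3 was rare as well, at 1.49 and 2.09 CPM, with an interval of the log2 ratio from -1.02 to 0.03.

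In the middle tier, Pou2f2, an octamer-binding POU factor, had 189 CPM in RA+BMP4 and 255 CPM in RA neuronal clusters (log2 -0.43, -0.48 to -0.39). Zfhx4 had 408 CPM in RA+BMP4 and 524 CPM in RA (log2 -0.36). Zfhx3 was slightly higher, with 1185 CPM in RA+BMP4 and 1069 CPM in RA (log2 0.15). Over all cells of the rule the log2 ratios were -0.17, -0.04 and 0.43. Pluripotent-like cells, which hold little of these 3 genes, gave 11.7% of the RA+BMP4 and 26.5% of the RA UMIs there. When cells of the rule under 2000 genes or over 5% mitochondrial UMIs were left out, Pou2f2 and Zfhx4 were higher in RA+BMP4, with log2 ratios of 0.20 and 0.15, so their direction over the rule's cells depends on this filter. Its 5% limit lies below the median mitochondrial share of the rule's RA cells (6.28%) and above that of RA+BMP4 (4.22%). That limit therefore left out a larger part of the RA cells. The filter was not run within the neuronal clusters.

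Among the late genes, Nfia, Nfib and Neurod2 were close in RA+BMP4 and RA. Nfia had 36.9 CPM in RA+BMP4 and 32.4 CPM in RA neuronal clusters (log2 0.19, 0.07 to 0.30), and Nfib had 26.2 and 22.5 CPM (log2 0.22, 0.08 to 0.35). Over all cells of the rule the Nfib ratio was 0.03 and took either sign with the settings, down to -0.30 with a rule of 20 UMIs. Neurod2 had 14.4 and 13.1 CPM, with an interval of the log2 ratio from -0.04 to 0.32. Neurod6 was higher in RA+BMP4, at 7.94 CPM against 5.37 CPM in RA (log2 0.56, 0.30 to 0.83). Without the dI6-like cluster the intervals of Nfia, Nfib and Neurod2 all held 0, at log2 ratios of 0.09, 0.08 and 0.02. Both libraries were also weighted alike over 8 sets of cells with at least 50 cells in each: dI1-like, dI2-like, dI4/dILA-like, dI5/dILB-like and newborn neuron-like cells and the Ppp1r17-led, Atoh1-led and shallow clusters, described below. The dI6-like and Cntn3-led clusters had too few cells in 1 library and did not enter. The log2 ratio of Onecut1 then stood at -0.27, with 2.10 CPM in RA+BMP4 and 2.54 CPM in RA, and that of Neurod6 at 0.13, with 7.67 and 7.0 CPM. Over the same 8 sets without the weighting, the log2 ratios were -0.85 for Onecut1 and 0.78 for Neurod6. Most of that gap was absent under the weighting. For Onecut1, taking these 8 sets alone had already narrowed the gap seen over all neuronal clusters. Onecut2 had 48.9 CPM in RA+BMP4 and 66.2 CPM in RA, Pou2f2 had 187 and 209 CPM, and Zfhx4 had 412 and 497 CPM. Zfhx3 had 1017 and 989 CPM, Nfia had 33.8 and 33.3 CPM, Nfib had 27.5 and 25.8 CPM, and Neurod2 had 18.3 and 12.7 CPM.

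Neuron classes were read from 22 joint clusters, named where markers of a known dorsal interneuron class (dI1 to dI6, and the late-born dILA and dILB) were met. The libraries filled the classes very differently. dI1-like cells were 21.0% of RA+BMP4 and 2.65% of RA neuronal cells, and dI2-like cells 19.2% and 4.46%. dI4/dILA-like cells were 8.46% and 20.5%, dI5/dILB-like cells 5.09% and 41.8%, and cells of the dI6-like cluster 1.19% and 11.0%. The dI1-like share depended on the clustering. The Cntn3-led cluster, 20.5% of RA+BMP4 and 0.688% of RA neuronal cells, met too few markers for a name, but its RA+BMP4 cells had 358 CPM of Barhl1 and 307 CPM of Barhl2, dI1 markers at 157 and 343 CPM in the Lhx2-led dI1-like cluster. It had little of the dI1 markers Lhx2 and Lhx9, at 2.38 and 12.1 CPM. At resolution 0.5 most of it fell in a dI1-like cluster, and dI1-like cells were then 41.5% of RA+BMP4 and 3.34% of RA neuronal cells. By cluster number, as plotted, the dI1-like clusters are the Lhx2-led 3 and the Zcchc12-led 15, the dI2-like clusters the Foxd3-led 4, the Nr4a2-led 16 and the Mecom-led 18, the dI4/dILA-like clusters the Cartpt-led 2 and the Pax2-led 10, and the dI5/dILB-like clusters the Tac1-led 1, the Cntnap5a-led 5 and the Tlx1-led 9. The Mecom-led cluster met only the dI2 markers Lhx1, Hmx2 and Hmx3. A Mecom-led cluster was named dI2-like at resolution 1.5 and had no name at 0.5. The Tac1-led cluster met 4 dI5/dILB markers, without Lmx1b or Prrxl1, and none was among its leading genes. In dI5/dILB-like cells of RA, Lbx1 was no higher than in other neuronal cells (65.9 against 71.6 CPM), while the other markers of the class were higher. Because the clusters of a class were filled in different proportions in RA+BMP4 and RA, comparisons between conditions are given within single clusters.

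**Figure D2:**
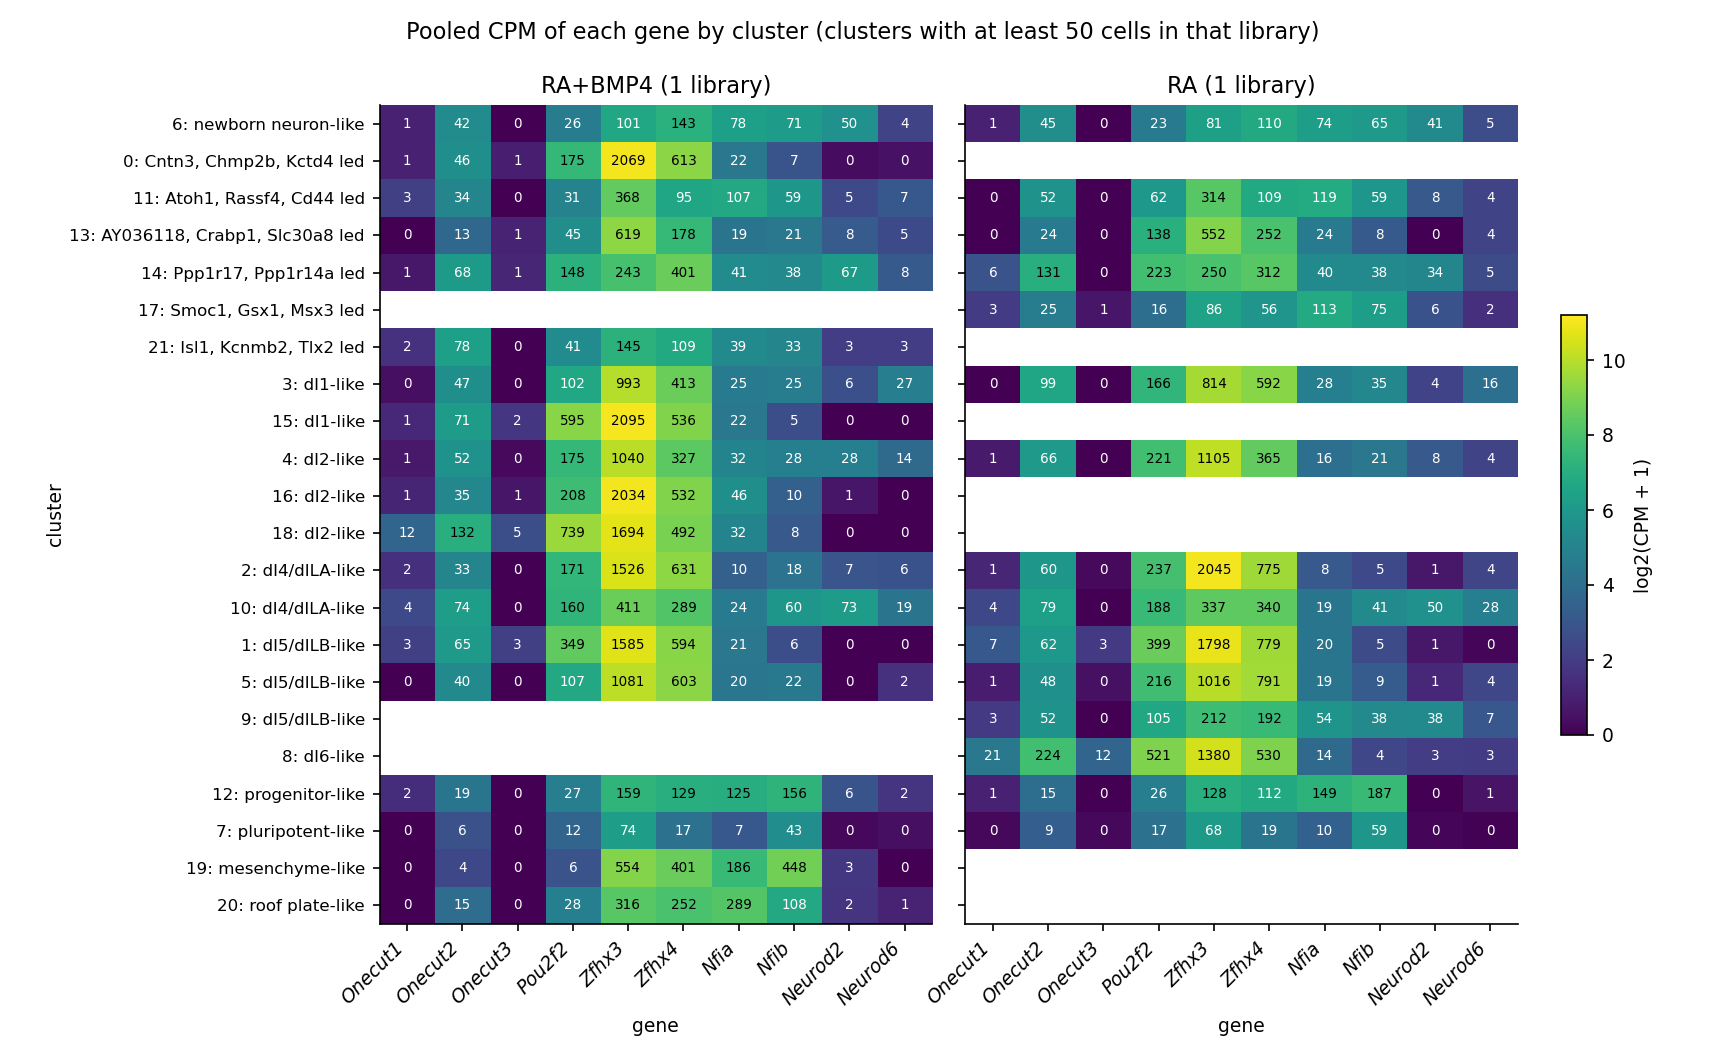
Pooled CPM of each gene (columns) in each cluster (rows) of RA+BMP4 and of RA, 1 library each, with the colour giving log2(CPM + 1) and blank rows marking fewer than 50 cells in that library. Zfhx3 is near 2000 CPM in several RA+BMP4 clusters and near 100 CPM in newborn neuron-like cells, while the Neurod2 column is above 30 CPM in 3 to 4 clusters of each library.

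The Onecut genes peaked together in the dI6-like cluster, whose leading genes were Irx1 and Dmrt3, a known marker of dI6 neurons. In its 336 RA cells Onecut2 had 224 CPM, Onecut1 had 21.3 CPM and Onecut3 had 11.6 CPM. Only 43 RA+BMP4 cells fell in it, with 421, 15.3 and 38.2 CPM. The class name rests on the RA cells and there mainly on Dmrt3 and Bhlhe22. Dmrt3 was at 4.59 CPM in RA+BMP4 and 52.8 CPM in RA and Bhlhe22 at 9.18 and 73.7 CPM. Wt1 had no UMI in the RA+BMP4 cells. In the other neuronal RA cells Dmrt3 was at 0.553 CPM and Bhlhe22 at 16.3 CPM. Lbx1 differed little in RA, at 79.4 CPM in the cluster and 67.8 CPM elsewhere. Pax2 was lower than in other neuronal cells, at 12.2 against 31.8 CPM in RA+BMP4 and 82.2 against 112 CPM in RA. With RA clustered alone, no cluster was named dI6-like, and the Dmrt3-led one was named dI4/dILA-like. The cluster held 46.5% of the RA Onecut1 UMIs and 67.1% of the Onecut3 UMIs of the rule's cells. The next Onecut2 levels in RA were 131 CPM in the cluster led by Ppp1r17 and Ppp1r14a and 98.6 CPM in the Lhx2-led dI1-like cluster. In RA+BMP4, where the dI6-like cluster is under 50 cells, the highest level was 132 CPM in the dI2-like cluster led by Mecom, the next was 78.1 CPM in a cluster led by Isl1, Kcnmb2 and Tlx2, and the median over 19 clusters of at least 50 cells was 41.6 CPM. Every neuronal cluster of at least 50 cells held Onecut2, from 13.0 CPM in the shallowest cluster of RA+BMP4 and 23.7 CPM in that of RA upwards.

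Pou2f2 and the Zfhx genes were low in newborn neuron-like cells, the Neurog1- and Neurog2-led cluster of neurons that have just left the cycle. There Pou2f2 had 26.0 CPM in RA+BMP4 and 22.8 CPM in RA, Zfhx3 had 101 and 80.5 CPM, and Zfhx4 had 143 and 110 CPM. A cluster led by Smoc1, Gsx1 and Msx3 was as low in its 146 RA cells, with 15.7, 86.2 and 56.0 CPM. Pou2f2 was highest in the Mecom-led dI2-like cluster of RA+BMP4, at 739 CPM, followed by the Zcchc12-led dI1-like cluster at 595 CPM. In RA it was highest in the dI6-like cluster, at 521 CPM, and next in the Tac1-led dI5/dILB-like cluster, at 399 CPM. Zfhx3 reached 2095 CPM in the Zcchc12-led dI1-like cluster of RA+BMP4 and 2045 CPM in the Cartpt-led dI4/dILA-like cluster of RA. The Cntn3-led cluster, the largest of RA+BMP4 with 742 cells, had 2069 CPM of Zfhx3, 175 CPM of Pou2f2 and 0.298 CPM of Neurod2. Zfhx4 had its highest level at 631 CPM in the Cartpt-led cluster of RA+BMP4 and at 791 CPM in the Cntnap5a-led dI5/dILB-like cluster of RA.

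Nfia and Nfib were high among neuronal clusters in the newborn neuron-like, Atoh1-led and Smoc1-led ones. Newborn neuron-like cells had 78.3 CPM of Nfia in RA+BMP4 and 74.1 CPM in RA, and 71.2 and 64.8 CPM of Nfib. Cells of the cluster led by Atoh1, the proneural gene of dI1 precursors, had 107 and 119 CPM of Nfia and 59.1 and 58.7 CPM of Nfib. The Smoc1-, Gsx1- and Msx3-led cluster of RA had 113 and 75.3 CPM. Progenitor-like cells that passed the rule had more, 125 and 149 CPM of Nfia and 156 and 187 CPM of Nfib. The dI6-like cluster of RA had 13.8 CPM of Nfia and 4.26 CPM of Nfib, and the Zcchc12-led dI1-like cluster of RA+BMP4 had 5.39 CPM of Nfib.

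Neurod2 and Neurod6, known as late-neuron genes in the cord and as cortical projection neuron genes in the forebrain, were high in few clusters. Neurod2 was highest in the Pax2-led dI4/dILA-like cluster, with Sst among its leading genes, at 72.8 CPM in RA+BMP4 and 50.1 CPM in RA. The Ppp1r17-led cluster had 67.0 and 34.1 CPM, newborn neuron-like cells had 49.8 and 40.6 CPM, and the Tlx1-led dI5/dILB-like cluster had 38.4 CPM in RA. The Tac1-led dI5/dILB-like cluster had 0 UMIs of Neurod2 in 80 RA+BMP4 cells, where 3 UMIs would be 3.30 CPM, and 0.662 CPM in 534 RA cells. Neurod6 was highest in the Lhx2-led dI1-like cluster of RA+BMP4, at 26.6 CPM against 15.8 CPM in RA, and in RA its highest level was in the Pax2-led cluster, which had 19.0 CPM in RA+BMP4 and 27.8 CPM in RA. The Lhx2-led cluster held 48.8% of the RA+BMP4 Neurod6 UMIs of the rule's cells, and the Pax2-led cluster 35.5% of those of RA.

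Within clusters, the conditions were compared where both libraries had at least 50 cells. In the dI1-like cluster led by Lhx2, Onecut2 had 47.3 CPM in 525 RA+BMP4 cells and 98.6 CPM in 78 RA cells (log2 -1.06, -1.39 to -0.72), the 1 of 7 genes at least 2-fold apart there, beside 6.26% of all genes. In the dI2-like cluster led by Foxd3, Neurod2 had 27.6 CPM in RA+BMP4 and 7.71 CPM in RA (log2 1.84, 0.91 to 2.94) and Neurod6 had 13.7 and 3.86 CPM (log2 1.83, 0.52 to 3.50), 2 of 8 genes beside 3.58% of all. The RA values rest on 10 and 5 UMIs. In the dI4/dILA-like cluster led by Cartpt, Nfib had 18.4 CPM in RA+BMP4 and 4.55 CPM in RA (log2 2.01, 1.16 to 2.89), 1 of 5 genes beside 3.62% of all, from 30 and 21 UMIs. In the Cntnap5a-led dI5/dILB-like cluster, Pou2f2 had 107 CPM in RA+BMP4 and 216 CPM in RA (log2 -1.01, -1.44 to -0.62) and Nfib had 22.2 and 8.64 CPM (log2 1.36, 0.26 to 2.34), 2 of 6 genes beside 9.08% of all. The Neurod2, Neurod6 and Nfib calls of this paragraph passed the 10 CPM minimum through RA+BMP4 alone, the library in which they were higher. With that minimum set in RA, none of them would be called.

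No gene was 2-fold apart in the Tac1-led dI5/dILB-like cluster (3.64% of all genes), in newborn neuron-like cells (2.57%), in the Pax2-led dI4/dILA-like cluster (5.81%), in the Atoh1-led cluster (5.4%) or in the Ppp1r17-led cluster (5.51%). In a cluster of shallow cells, with a median of 3722 UMIs, Pou2f2 had 44.9 CPM in RA+BMP4 and 138 CPM in RA, 1 of 6 genes beside 13.4% of all. Apart from that cluster, Onecut2 was lower in RA+BMP4 with an interval that left out 0 in 4 of 9 clusters and higher in none. Pou2f2 was lower in 7 of 9 and higher in none. By the same measure, Nfib was higher in 3 of 8 clusters, Nfia in 1 of 8, Neurod2 in 3 of 4 and Neurod6 in 2 of 3, and none of these 4 genes was lower in any. Zfhx3 was higher in 4 of 9 and lower in 3, and Zfhx4 higher in 2 of 9 and lower in 6. A gene entered a cluster's count at 10 CPM in either library, and some entered through RA+BMP4 alone, the library in which they were higher. With the minimum set in RA instead, Nfib was higher in 1 of 6 clusters, Neurod2 in 2 of 3 and Neurod6 in 1 of 2, and the counts of the other genes were the same. With the minimum set on the mean of both libraries, Neurod6 was higher in 1 of 2 and the other counts did not change. The clusters of a library share 1 culture and are not replicates.

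**Figure D3:**
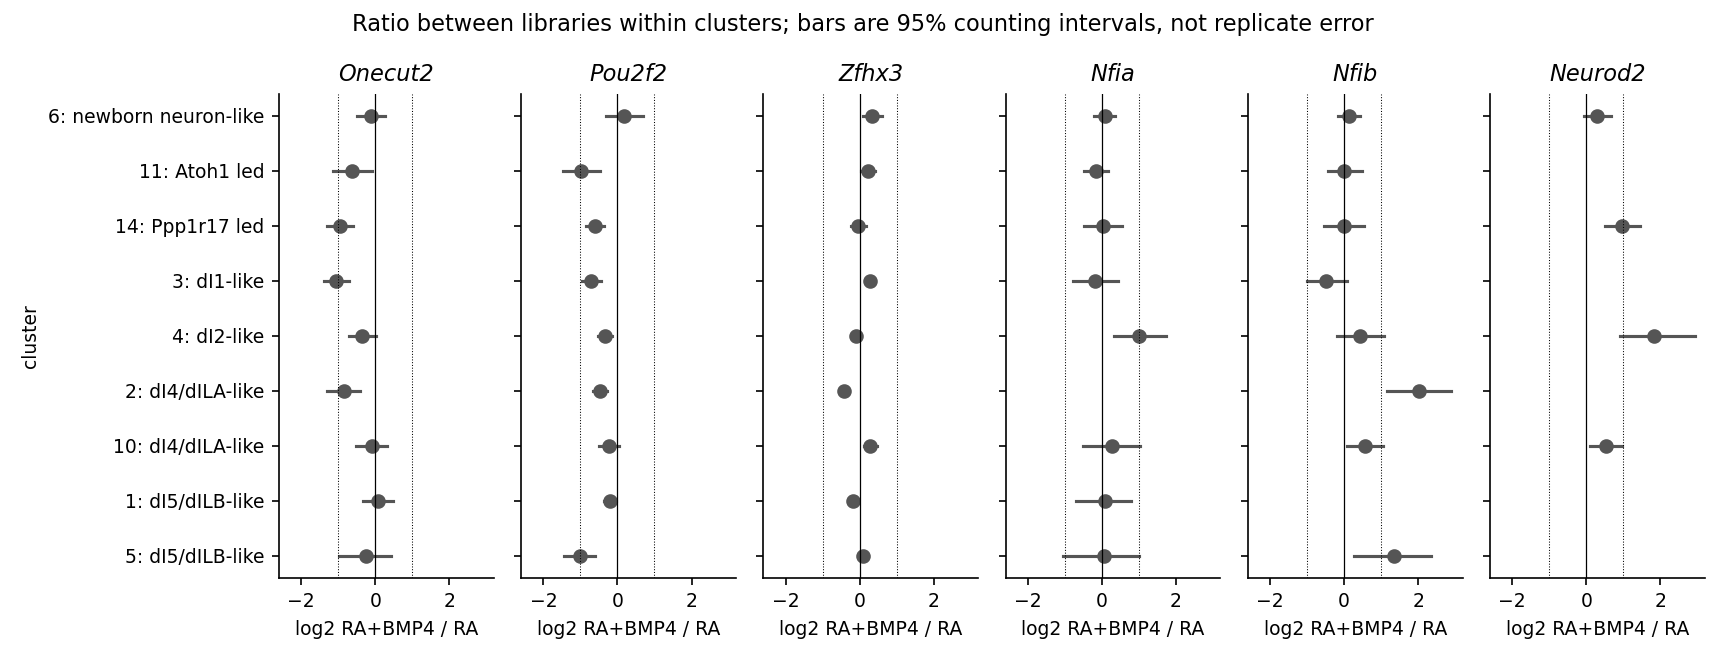
Log2 ratio of RA+BMP4 over RA within each cluster for 6 of the genes, where the gene reached 10 CPM in either library, with points for the ratio, bars for the 95% counting interval and dotted lines at 2-fold. The Onecut2 and Pou2f2 points lie mostly left of 0. The Nfib point of the Cartpt-led dI4/dILA-like cluster lies at 2.01, where only RA+BMP4 reached 10 CPM.

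The balance of late and early genes was summarised as the UMIs of Nfia, Nfib, Neurod2 and Neurod6 out of those plus the Onecut UMIs. This late-code share was 58.2% in RA+BMP4 (56.8 to 59.6%) and 45.2% in RA (44.0 to 46.4%) over the neuronal clusters. Without the dI6-like cluster it was 61.8% in RA+BMP4 (60.4 to 63.2%) and 55.3% in RA (53.9 to 56.7%), so the difference was 6.48 percentage points in place of 13.0. Over all cells of the rule it was 69.6% and 62.3%, and in the other kept cells 98.8% and 98.2%. Newborn neuron-like cells had shares of 82.6% in RA+BMP4 and 80.1% in RA, and their intervals overlapped. The Cartpt-led dI4/dILA-like cluster had 54.0% (44.9 to 63.0%) and 21.9% (17.7 to 26.5%), and the Pax2-led cluster of the same class had 69.2% and 62.4%. The Foxd3-led dI2-like cluster had 65.9% and 42.3%, the Lhx2-led dI1-like cluster 63.2% and 45.6%, and the Ppp1r17-led cluster 68.8% and 46.1%. In the Tac1-led dI5/dILB-like cluster the shares were 27.0% in RA+BMP4 and 26.3% in RA. The dI6-like cluster stood lowest of the clusters named here, at 5.20% in RA+BMP4 and 8.54% in RA. For dI1-like neurons the direction depended on the clustering, since clustering each library alone gave a difference of -3.84 percentage points against 9.40 points here.

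The genes were then followed along a scale of neuronal maturity that used none of them. Neuronal cells of both libraries were ranked together by the UMI share of 11 mature-neuron genes, such as Snap25, Nefl and Rtn1, and divided into 3 bins, from least mature (bin 1) to most mature (bin 3). Summed mature-gene levels in bins 1 to 3 were 1191, 4421 and 6713 CPM in RA+BMP4 and 1225, 4117 and 7248 CPM in RA. The Onecut and middle-tier genes were higher in bin 3 than in bin 1 and the late genes lower, in both libraries, with the interval of Onecut1 in RA+BMP4 (log2 -0.12 to 1.63) the 1 that held 0. Onecut3 had only 2 UMIs in bin 1 of each library. In RA bin 3, the dI6-like cluster gave 91 of 153 Onecut1 UMIs and 53 of 74 Onecut3 UMIs.

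Zfhx3 had 347, 1237 and 1719 CPM in bins 1 to 3 of RA+BMP4 and 373, 1363 and 1650 CPM in RA. Pou2f2 had 57.9, 154 and 306 CPM in RA+BMP4 and 99.2, 235 and 468 CPM in RA. Zfhx4 reached most of its level by bin 2, with 201, 469 and 502 CPM in RA+BMP4 and 276, 718 and 644 CPM in RA. Onecut2 had 37.8, 48.8 and 78.9 CPM in RA+BMP4 and 56.0, 65.4 and 128 CPM in RA, so it was highest in the most mature bin of both. The RA level of bin 3 rests largely on the dI6-like cluster, whose 205 cells there gave 949 of 1568 Onecut2 UMIs. The bins were not read without that cluster.

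Nfib was highest in bin 1, with 55.7, 20.7 and 10.2 CPM in bins 1 to 3 of RA+BMP4 and 45.3, 9.48 and 6.70 CPM in RA. Nfia had 68.3, 28.8 and 21.6 CPM in RA+BMP4 and 58.1, 18.0 and 14.3 CPM in RA. Neurod2 had 33.5, 10.6 and 4.30 CPM in RA+BMP4 and 27.7, 6.26 and 1.47 CPM in RA. Neurod6 had 11.7, 10.5 and 3.31 CPM in RA+BMP4 and 9.33, 5.42 and 0.408 CPM in RA. Unlike the other late genes, Neurod6 had no higher level in newborn neuron-like cells than over all neuronal clusters. It had 3.92 against 7.94 CPM in RA+BMP4, and 5.34 against 5.37 CPM in RA. The log2 ratio of bin 3 over bin 1 was -2.96 for Neurod2 in RA+BMP4 (-3.38 to -2.57) and -4.23 in RA (-5.00 to -3.56). Summed newborn-neuron genes moved with these late genes, at 1130, 181 and 123 CPM in RA+BMP4 and 872, 125 and 112 CPM in RA, and their part in these levels was not tested.

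**Figure D4:**
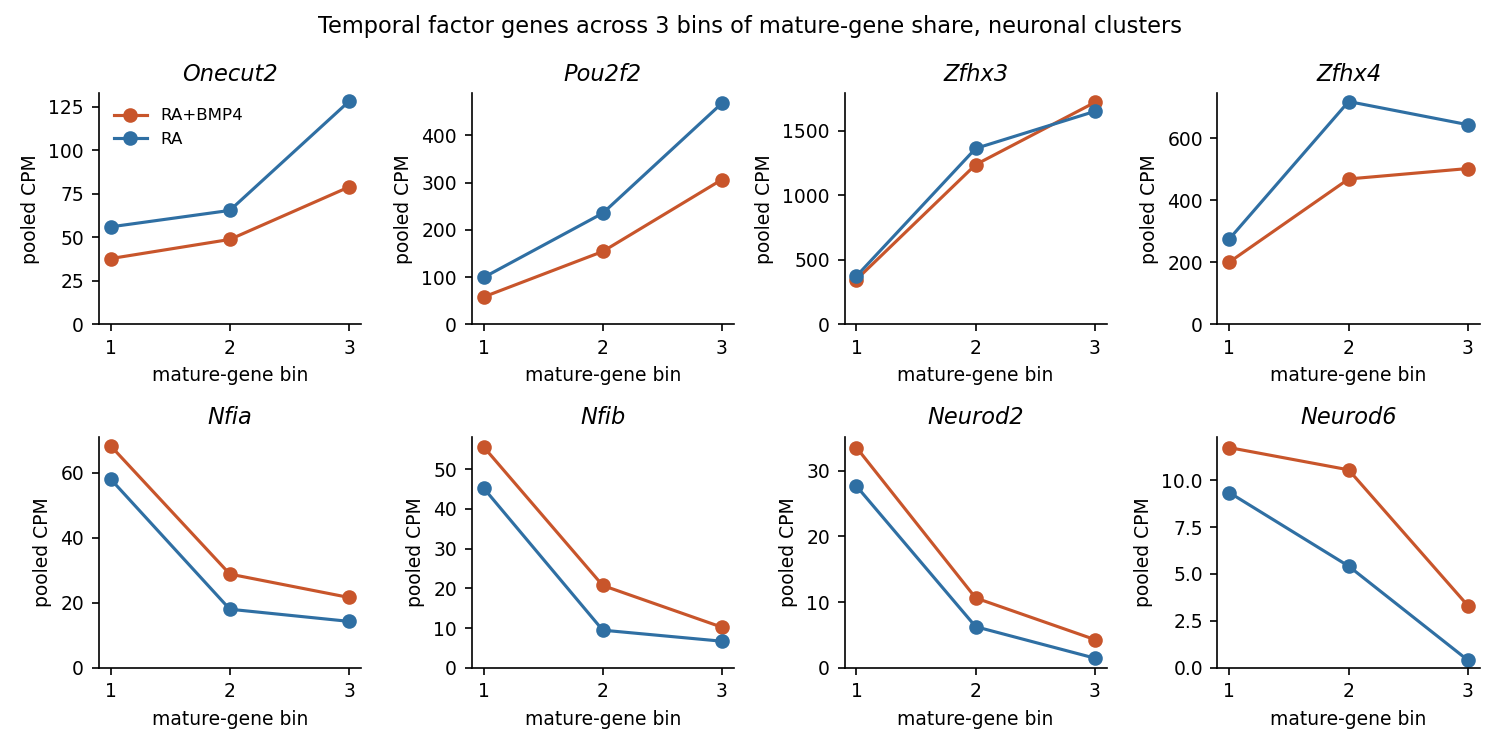
Pooled CPM of 8 of the genes in 3 bins of neuronal cells ranked by mature-neuron gene share, bin 1 the least and bin 3 the most mature, RA+BMP4 in orange and RA in blue. Onecut2, Pou2f2 and Zfhx3 are highest in bin 3, and Nfia, Nfib, Neurod2 and Neurod6 are highest in bin 1, in both libraries.

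The bins hold different classes, so the trend was read inside classes with at least 50 cells in the lowest and highest bin. In dI1-like cells of RA+BMP4, Pou2f2 had 105, 133 and 380 CPM and Neurod6 had 42.7, 26.1 and 5.81 CPM in bins 1 to 3. In dI4/dILA-like cells of RA, Zfhx3 had 811, 1704 and 2050 CPM and Neurod2 had 32.9, 11.1 and 9.05 CPM, while Onecut2 was flat at 71.2, 61.8 and 72.4 CPM. In dI5/dILB-like cells of RA, Nfib had 28.5, 9.44 and 4.78 CPM and Pou2f2 had 118, 201 and 462 CPM. In all 4 sets of a class and library, which add the dI5/dILB-like cells of RA+BMP4, Pou2f2, Zfhx3 and Zfhx4 were higher in bin 3 than in bin 1 with intervals above 0. Nfia was lower with an interval below 0 in 3 of them, and in the dI5/dILB-like cells of RA+BMP4 its interval was -1.94 to 0.03. For Onecut2 the interval was above 0 in the dI5/dILB-like cells of both libraries. It held 0 in dI1-like cells of RA+BMP4 (-0.06 to 0.95) and in dI4/dILA-like cells of RA (-0.41 to 0.44).

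Within single neuronal-cluster cells, Onecut and Nfi genes were found together slightly less often than the product of their shares gives, by no more than the counting interval. Onecut and Neurod genes went either way. After thinning to 5000 UMIs, 189 of 3311 RA+BMP4 neuronal cells carried both a Onecut and an Nfi, Neurod2 or Neurod6 UMI, beside 200 from the product, which lies within the interval (4.94 to 6.55% of cells). In RA the count was 149 of 2988 cells (4.23 to 5.83%), beside 177, which lies just above the interval. With Nfia or Nfib alone the counts were 146 in RA+BMP4 (3.74 to 5.17% of cells), beside 162, and 127 in RA (3.56 to 5.04%), beside 146. Both products lie within these intervals. Within classes this ratio also lay on both sides of 1, from 0.48 in dI5/dILB-like cells of RA+BMP4 to 1.36 in dI1-like cells of RA. With Neurod2 or Neurod6 alone they were 68 in RA+BMP4, beside 59.0, and 41 in RA, beside 50.8. Within classes the ratio for all 4 late genes lay on both sides of 1, from 0.66 in dI5/dILB-like cells of RA+BMP4 to 1.25 in the Ppp1r17-led cluster of RA+BMP4. Over all cells of the rule the counts were 200 of 3665 RA+BMP4 cells, beside 229, and 162 of 3493 RA cells, beside 210. There the RA+BMP4 product lies at the upper end of its interval (4.74 to 6.24% of cells). The RA product lies above its interval (3.96 to 5.39%). Pairs of late genes shared cells more often, but Nfia with Neurod2 or Neurod6 was near the product in RA+BMP4. Those counts were 34 beside 29.1 and 18 beside 17.4 in RA+BMP4, and 39 beside 18.9 and 19 beside 9.08 in RA. Neurod2 and Neurod6 were found together in 29 RA+BMP4 cells, beside 6.45 from the product, and in 22 RA cells, beside 3.52. Nfib and Neurod2 were found together in 41 RA+BMP4 cells, beside 17.6, and in 29 RA cells, beside 12.9. Zfhx3 and Neurod2 were found together in 96 RA+BMP4 cells, beside 164 from the product, and in 69 RA cells, beside 118. Onecut1 and Onecut2 shared 17 RA+BMP4 cells, beside 7.72, and 45 RA cells, beside 18.2. These counts pool classes of different levels, and cells of a library are not replicates.

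Patterns most like each gene were sought by Pearson's r of log2(CPM + 5) over 26 class-by-library sums and 11253 genes, as a description. Pou2f2 was most like Ina (r 0.94), a neuronal intermediate filament gene that is also in the mature-neuron list. Zfhx3 was most like Eid2, Adgrl3 and Snx32 (0.94, 0.94 and 0.93), and Zfhx4 was most like Asxl3 (0.94). Onecut2 was most like Fbxl16, Elavl2 and Slc35e2 (0.87 each). Onecut1 was most like Cnmd, Lrrtm4 and Onecut3 (0.82, 0.78 and 0.76), and Onecut3 like Lrrtm4, Slc35f4 and Dmrt3 (0.93, 0.89 and 0.85). Nfia was most like Rcbtb2, Wls and Prom1 (0.91, 0.91 and 0.90) and Nfib like Calu, Stk3 and Rbms2 (0.91 each). Neurod2 was most like Igsf8, Serping1 and Pxylp1 (0.88, 0.84 and 0.84), and Neurod6 like Fam222a, St18 and Epb41 (0.77, 0.75 and 0.74). The sums share 2 libraries and their depth.

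Related genes were read in the neuronal clusters at the same 10 CPM and 2-fold limits, where the median log2 ratio was 0.06 over all genes and 0.14 over the 7 of the 10 genes that reached 10 CPM. Of 7 measured relatives of the 10 genes, 1 was at least 2-fold higher in RA+BMP4, Neurod1, at 29.4 CPM against 10.3 CPM in RA. The list's median was 0.14. Nfix stood at 8.09 CPM in RA+BMP4 and 11.99 CPM in RA, and Tcf4 at 309 and 427 CPM. Of 7 POU and LIM homeobox partners in early neurons (median -0.02), 3 were higher: Isl1 (35.1 CPM in RA+BMP4 and 5.55 CPM in RA), Pou3f1 (501 and 211 CPM) and Pou3f2 (322 and 135 CPM). None of 6 heterochronic genes (median -0.04) was 2-fold apart, with Trim71 at 16.1 CPM in RA+BMP4 and 20.4 CPM in RA, Hmga2 at 22.7 and 19.6 CPM and Igf2bp1, an RNA-binding protein gene of immature cells, at 120 and 103 CPM. Among 7 genes of the TGF-beta pathway (median -0.07), the pathway known to drive the early to late switch in spinal progenitors, none was 2-fold apart, with Tgfb2 at 46.2 CPM in RA+BMP4 and 27.3 CPM in RA and Gdf11 at 50.9 and 69.4 CPM. None of 4 late progenitor genes (median -0.05) was 2-fold apart, with Fabp7 at 170 CPM in RA+BMP4 and 254 CPM in RA and Ntrk2 at 64.2 and 43.5 CPM. None of 11 mature-neuron genes (median 0.16) was, with the vesicle gene Syt1 at 205 CPM in RA+BMP4 and 104 CPM in RA and the growth cone gene Gap43 at 345 and 611 CPM. Of 7 newborn-neuron genes (median 0.33), 2 were higher, Neurog2 (48.3 CPM in RA+BMP4 and 22.5 CPM in RA) and Neurod1.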

How the data were processed

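The authors deposited raw UMI counts per gene and barcode for 2 libraries of the 10x Genomics 3′ kit, per the file headers and the labels' protocols. Per the submitters' processing notes the tools were CASAVA and Cell Ranger 3.0.2 with GRCm38. How cells were called is not stated there. Total UMIs were 115268932 in RA+BMP4 and 122110565 in RA. Cells under 1000 genes or over 10% mitochondrial UMIs were dropped, and doublets called per library by Scrublet (scanpy 1.11.5, expected rate 8%) were removed, 298 and 138.

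Cells of the neuron rule were clustered together with 3000 variable genes, 30 principal components, 20 neighbours and leidenalg 0.10.2 at resolution 1. The 10 genes, all marker lists, the rule genes, the related lists and the genes of mitochondria and ribosomes did not enter. A cluster was named where at least 3 markers were each detected in 10% of the cluster at 1.5 times their level elsewhere. Among such classes, the one with most markers among the 10 leading genes gave the name. The step that left ties unnamed was added after the clusters were seen. The 1 cluster that met peripheral sensory markers is called by leading genes. Leaving out non-neuronal clusters or the dI6-like cluster, and CPM minima set in RA or on the mean for counts of clusters, were added after seeing the data.

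Counts were summed per cell set and scaled to CPM. Ratios carry exact conditional binomial intervals and shares Clopper-Pearson intervals. Genes with under 3 UMIs were set to 3 in ratios. A gene was called apart at 2-fold or more, with at least 10 CPM in either set. Counts of clusters by interval also left out a gene with under 3 UMIs on either side. Thinning drew 5000 UMIs per cell without replacement and left out shallower cells. Counting intervals do not hold the spread between cultures. The calls, intervals and thinning were tested on simulated data. edgeR 4.0.16 gave TMM factors for an alternative only. The genes named are the 10 genes, at most 3 per related list with the largest ratios, and the 3 most similar genes of each, of which some are not reported here. The 10 genes and all lists were chosen with earlier results of these data known.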

Additional observations from a re-analysis of the deposited data

Results flagged for a closer look

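Zfhx3 went in opposite directions in different clusters. Its log2 ratio of RA+BMP4 over RA was 0.33 in newborn neuron-like cells and -0.42 in the Cartpt-led dI4/dILA-like cluster, and both intervals left out 0. Zfhx4 had a log2 ratio of 0.37 in newborn neuron-like cells and -0.52 in the Lhx2-led dI1-like cluster, again with both intervals on their own side of 0. The difference between clusters was not tested, as each condition has 1 library.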

How the results depend on the processing

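No paired analysis was possible because each condition has 1 library. Of the 10 genes, those at the CPM minimum were under 2-fold apart under every alternative run for that count except a minimum of 2 CPM, where 1 gene, Onecut1, was apart. Genes at least 2-fold higher in RA+BMP4 numbered 149; dropping cells under 2000 genes or over 5% mitochondrial UMIs gave 244, and a minimum of 2 CPM gave 367. Genes at least 2-fold lower numbered 154. They were 389 under that filter of cells, 95 and 300 with neuron rules of 3 and 20 UMIs, 66 without the 4 non-neuronal clusters, 62 without the pluripotent-like cluster, 82 and 341 with minima of 20 and 2 CPM, and 92 with cells weighted equally.

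The same filter of cells turned the log2 ratios of Pou2f2 to 0.20 and of Zfhx4 to 0.15 in cells of the rule. No other ratio of the 10 genes over these cells whose interval left out 0 was turned. Within dI1-like cells, clustering each library alone turned Pou2f2 to -0.29 and Zfhx4 to 0.058, and the marker gate turned Zfhx4 to 0.21 in dI2-like cells. The late-code share of RA+BMP4 minus RA was 7.30 percentage points over the rule's cells, 13.0 without the 4 non-neuronal clusters and 6.48 without the dI6-like cluster as well. With each library clustered alone it was -3.84 in dI1-like, 35.8 in dI2-like, 45.2 in dI4/dILA-like and 11.3 in newborn neuron-like cells, against 9.40, 13.1, 16.6 and 2.54. Resolution 0.5 gave 23.3 in dI2-like and 11.8 in newborn neuron-like cells, and resolution 1.5 gave 12.1 in dI5/dILB-like cells against -0.69. The ratio of cells with both early and late genes to the product of shares was 0.77 in RA and 0.92 with doublets kept. The causes were not tested. At these depths Onecut1 and Onecut3 could be measured only as pools, and ratios from under 30 UMIs have wide intervals.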
